A study of Oncorhynchus mykiss with 6 samples.

Results

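miR-26 is a family of small regulatory RNAs found throughout the vertebrates, and it was followed here in dorsal skin of rainbow trout (Oncorhynchus mykiss). All fish were 45 days old. In each of 2 groups 3 small RNA libraries were sequenced. YR libraries came from a yellow mutant with yellow skin, and WR libraries from wild-type fish with black skin. The sources used here do not give the gene behind the yellow colour, nor whether the libraries of a group are separate fish or pools, so a p-value speaks only of the spread among these libraries, which may be technical. The series looks for miRNAs and messenger RNAs linked to skin colour. The miR-26 rows were chosen by name, as rows whose name without the arm letter is exactly miR-26, and 3 of the 1939 rows of the deposited table fitted this, namely miR-26-x, miR-26-y and miR-26-z. All 3 are among the 834 rows tested, which had a mean of at least 1 TPM (the authors' depth-scaled count). The family was taken up because miR-26-x had passed the test between YR and WR in an earlier treatment of these libraries. Its values in that comparison are therefore a description here, and support nothing.

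A miRNA is cut from a hairpin as a duplex of a 5p and a 3p strand. One strand is usually kept by an Argonaute protein, and pairs through its seed, the bases near its 5′ end, with messenger RNAs that are then repressed. In vertebrates the miR-26 genes lie in introns of the CTDSP genes, which encode small phosphatases, and in zebrafish miR-26b represses the transcript of its own host gene ctdsp2 in developing neurons. In mammals miR-26 is abundant in differentiated tissue, is repressed by MYC, and acts on EZH2, the histone methyltransferase of a Polycomb complex.

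The listed sequences of the rows show which strand each holds, and the seed (bases 2 to 8) is in capitals.
miR-26-x: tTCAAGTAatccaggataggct
miR-26-z: tTCAAGTAatccaggataggtta
miR-26-y: cCTATTCGggatgacttggttc
miR-26-x and miR-26-z carry the same seed, TCAAGTA, which no other of the 1939 rows has. The first 20 bases of both are identical. Counted from 1 at the 5′ end, the next base differs as C21T, given as the base of miR-26-x, the position and the base of miR-26-z, which is also 1 base longer (23 against 22 bases). miR-26-y has another seed, held by 1 row, its own, and a predicted duplex with miR-26-x joined them by 17 base pairs. Each row's sequence is listed once. The closest row of another name lay 6 edits from miR-26-x, 8 from miR-26-z and 9 from miR-26-y. The sources used here do not say how reads that could come from both miR-26-x and miR-26-z were counted, so the split between these near-identical rows is uncertain.

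Library totals ran from 8245698 to 10336991 counts, so that 1 read was worth 0.101 to 0.127 TPM. WR replicate 1 stood apart from the other libraries, with 23313 reads of miR-127-y against 391 to 531 in YR and 326 and 602 in the other WR libraries. Values without this library are given beside many of the results that it changes. The epidermal markers of skin were present, with all 6 (miR-141-y, miR-184-y, miR-200-y, miR-203-y, miR-205-x and miR-429-y) read in the libraries. Together they took 7.71% to 9.25% of the counts in YR and 10.3% to 10.5% in WR, without overlap, and 0 of the 6 passed the edgeR test (adjusted p from 0.233 to 0.583). Without WR replicate 1, 3 of the 6 fell by edgeR (miR-200-y, miR-203-y and miR-429-y), with a median log2 fold change of -0.38 over the list. Markers of dermis and mesenchyme took 30.0% to 37.6% in YR and 29.7% to 32.1% in WR. Of these 5 markers miR-199-y rose (log2 fold change 0.73, SE 0.13; edgeR adjusted p = 0.0341), and without WR replicate 1 miR-214-y did as well. Skeletal muscle markers took 0.725% to 1.31% in YR and 0.921% to 1.24% in WR, and red blood cell markers 0.0216% to 0.0369% in YR and 0.0225% to 0.0444% in WR. The 3 neural markers took 0.00594% to 0.0121% in YR and 0.00417% to 0.00575% in WR, again without overlap, and 0 of them passed by edgeR, or 1, miR-124-y, without WR replicate 1. The margin of this sum was narrow, and miR-124-y alone overlapped, at 24.1 TPM in YR replicate 3 and 25.8 TPM in WR replicate 1. The liver marker miR-122-x took 0.000513% to 0.00123% in YR and 0.00369% to 0.00492% in WR, and fell (log2 fold change -2.05, SE 0.30; edgeR adjusted p = 0.0201). Over all 834 rows 3.12% were called lower in YR and 2.16% higher. On the TPM scale 19.7% of the 834 single rows lay lower in every YR library than in every WR library, and 8.63% higher. No such share is given for sums of rows. The fit without WR replicate 1 called more rows, 78 of 781 lower and 34 higher. Whether these mixtures of cells have a part in the miR-26 values was not tested, and fewer cells of a type and less RNA per cell cannot be told apart in such samples.

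miR-26-x, the 5p strand, was one of the main miRNAs of this skin. It stood at 70490.5, 66781 and 59962 TPM in the YR libraries, against 60818, 57944 and 54565 TPM in the WR libraries. The groups overlapped on this scale, since YR replicate 3 lay below WR replicate 1, while the other YR libraries lay above every WR library. The means were 65745 ± 5340.4 TPM in YR and 57776 ± 3130 TPM in WR (SD, n = 3 each), a ratio of 1.14. By rank miR-26-x was the third most abundant row in all 3 YR libraries and in WR replicate 1, and the fourth in WR replicates 2 and 3.

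As a share of the counts, miR-26-x took 6.70%, 6.38% and 5.77% in YR and 5.78%, 5.52% and 5.24% in WR. At this depth counting error is small: the 95% Wilson interval was 5.75% to 5.78% for YR replicate 3 and 5.76% to 5.79% for WR replicate 1, so these libraries cannot be told apart by counting alone. The mean share was 6.28% ± 0.475 in YR and 5.51% ± 0.270 in WR (SD, n = 3 each), a difference of 0.769 percentage points. The rows miR-26-y and miR-26-z added so little that the whole family took 6.29% ± 0.475 in YR and 5.52% ± 0.270 in WR.

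The share depended on miR-199-x, a miRNA of mesenchyme and the most abundant row of the table. miR-199-x took 25.7%, 29.2% and 33.5% of the counts in YR replicates 1, 2 and 3, against 26.2%, 26.7% and 29.5% in WR. It was highest in YR replicate 3, the YR library in which the miR-26-x share was lowest. With miR-199-x left out of the totals, miR-26-x took 9.02%, 9.01% and 8.67% in YR and 7.83%, 7.53% and 7.43% in WR. On that base every YR library lay above every WR library, as in 10.8% of the tested rows, with means of 8.90% ± 0.198 in YR and 7.60% ± 0.208 in WR (SD, n = 3 each). The ratio of the means was 1.17, against 1.14 with miR-199-x in the totals.

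After TMM scaling, which sets the libraries level on the bulk of their miRNAs, the groups separated too. miR-26-x then stood at 65702, 69896 and 68609 CPM (counts scaled to a common library size) in YR and at 48408, 51027 and 53071 CPM in WR. The TMM factor was largest in WR replicate 1, at 1.19, and smallest in YR replicate 3, at 0.841. All 3 YR libraries lay above all 3 WR libraries, which 17.6% of the 834 rows also did on this scale; on the TPM scale 8.63% did, and miR-26-x did not. The log2 fold change was 0.42 (SE 0.083), or 1.34-fold, and ranked 178 from the highest of 834. The edgeR quasi-likelihood test with Benjamini-Hochberg adjustment gave an adjusted p of 0.0409, the value for which the family was chosen. In this comparison 2.16% of rows were called higher in YR, and 1 of the 3 miR-26 rows was. The row just inside the threshold of 0.05, a predicted miRNA, had 0.0449 and the row just outside, miR-460-y, had 0.0546. The 834 rows hold some sequences more than once. With 1 row for each distinct sequence, 3 of 691 rows were called higher in YR, and miR-26-x was not (edgeR adjusted p = 0.127).

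The direction held, but the call did not. The 16 alternatives run were other scalings, tests and filters, a replicate term, and each library left out in turn. In all 16 the log2 fold change was positive, from 0.18 to 0.52. In 0 of them did miR-26-x pass (adjusted p from 0.0618 to 0.327 by the test of each setting). The unadjusted p was under 0.05 in 14, with no share over all rows beside it. As the row was chosen for its values in these same libraries, these refits support nothing. Without WR replicate 1 the log2 fold change was 0.27 (edgeR adjusted p = 0.176), and without WR replicate 2 it was 0.29 (edgeR adjusted p = 0.244). With library totals alone it was 0.19 (edgeR adjusted p = 0.279). These scalings moved all miRNAs together: over all tested rows the median log2 fold change was -0.03 under TMM, against -0.26 where library totals served alone. Relative to that median miR-26-x stood 0.45 higher with TMM and 0.44 higher with library totals, and 0.27 to 0.50 higher over all settings. The authors' deposited table gives miR-26-x a log2 fold change of 0.19 with an adjusted p of 0.841.

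**Figure D1:**
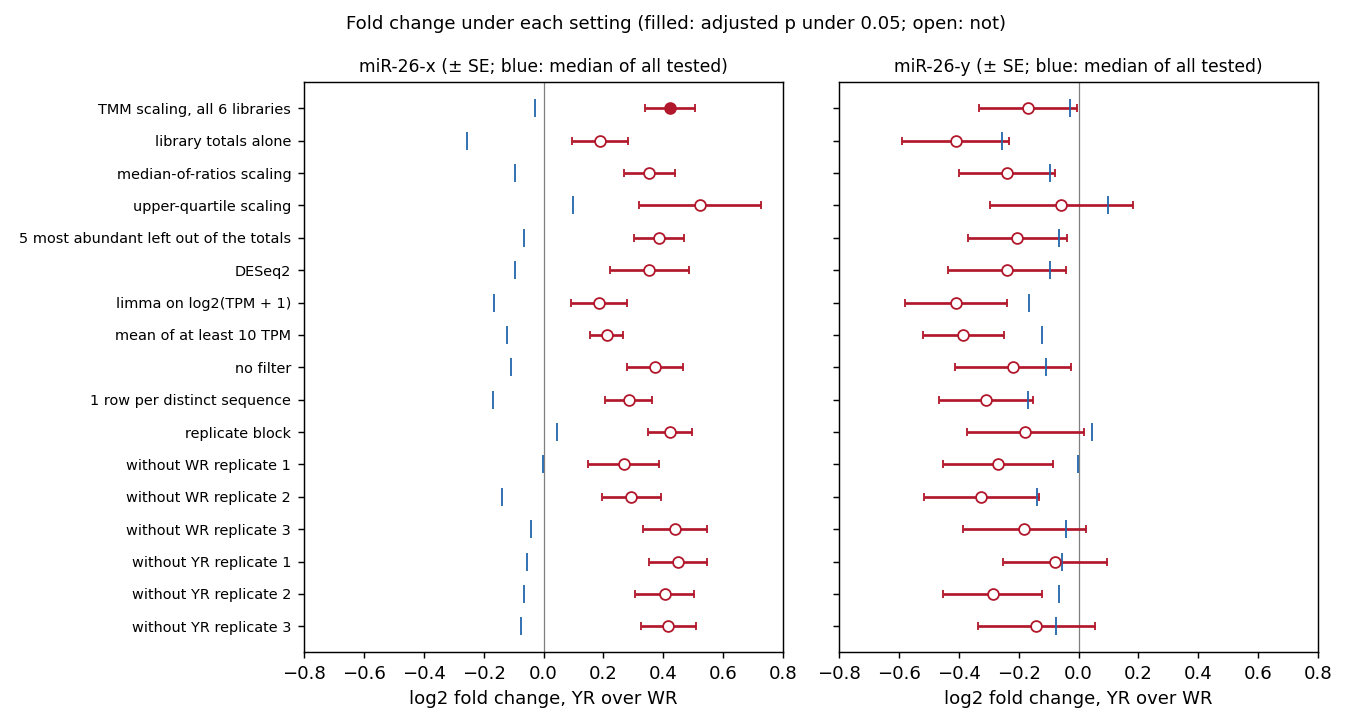
log2 fold change of YR over WR (x axis) of miR-26-x (left) and miR-26-y (right) under each processing setting (rows), as points with SE; filled points have an adjusted p under 0.05 and blue ticks mark the median of all tested miRNAs. Every miR-26-x point lies right of 0 and right of the blue tick but only the TMM fit with all 6 libraries is filled, while every miR-26-y point lies left of 0 and none is filled.

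miR-26-y, the 3p strand, went the other way on the authors' scale. It stood at 55.3, 65.4 and 49.7 TPM in YR, against 85.7, 72.7 and 68.3 TPM in WR, from 494 to 538 reads in a YR library and 604 to 705 in a WR library. Every YR library lay below every WR library, which 19.7% of all tested rows also did. The margin was narrow. The 95% Wilson interval of the share was 0.00573% to 0.00681% in YR replicate 2 and 0.00606% to 0.0071% in WR replicate 3, and these intervals overlap. The means were 56.8 ± 7.95 TPM in YR and 75.6 ± 9.06 TPM in WR (SD, n = 3 each).

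TMM scaling closed this gap, with 51.5, 68.4 and 56.9 CPM in YR and 68.2, 64.0 and 66.4 CPM in WR. YR replicate 2 then lay above every WR library. The log2 fold change of miR-26-y was -0.17 (SE 0.16; edgeR adjusted p = 0.528), and it was -0.41 with library totals alone (edgeR adjusted p = 0.229) and -0.058 with upper-quartile scaling (edgeR adjusted p = 0.886). Single libraries moved it as much: it was -0.078 without YR replicate 1, -0.29 without YR replicate 2, -0.27 without WR replicate 1 and -0.32 without WR replicate 2. The row therefore gave no call, with adjusted p from 0.187 to 0.886 over all settings. With all 6 libraries its groups overlapped in CPM and not in TPM, the reverse of miR-26-x. Single libraries made these overlaps. That of miR-26-x in TPM was gone without WR replicate 1 or YR replicate 3, and that of miR-26-y in CPM without YR replicate 2. No share over all rows is given for those settings.

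miR-26-z was a minor row with the seed of miR-26-x. It had 55, 35 and 62 reads in YR and 27, 63 and 62 reads in WR, or 5.65, 4.44 and 6.24 TPM in YR and 3.28, 7.22 and 7.01 TPM in WR. The groups overlapped, and the lowest library was WR replicate 1. Its share there, with a 95% Wilson interval of 0.000214% to 0.000454%, lay below that of WR replicate 2 at 0.000538% to 0.000881%. For each 10000 reads of miR-26-x there were 0.802, 0.665 and 1.04 reads of miR-26-z in YR and 0.540, 1.25 and 1.28 in WR. The log2 fold change was 0.11 (SE 0.41; edgeR adjusted p = 0.881), and -0.33 without WR replicate 1. The difference between the groups was smaller than the spread among the WR libraries.

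**Figure D2:**
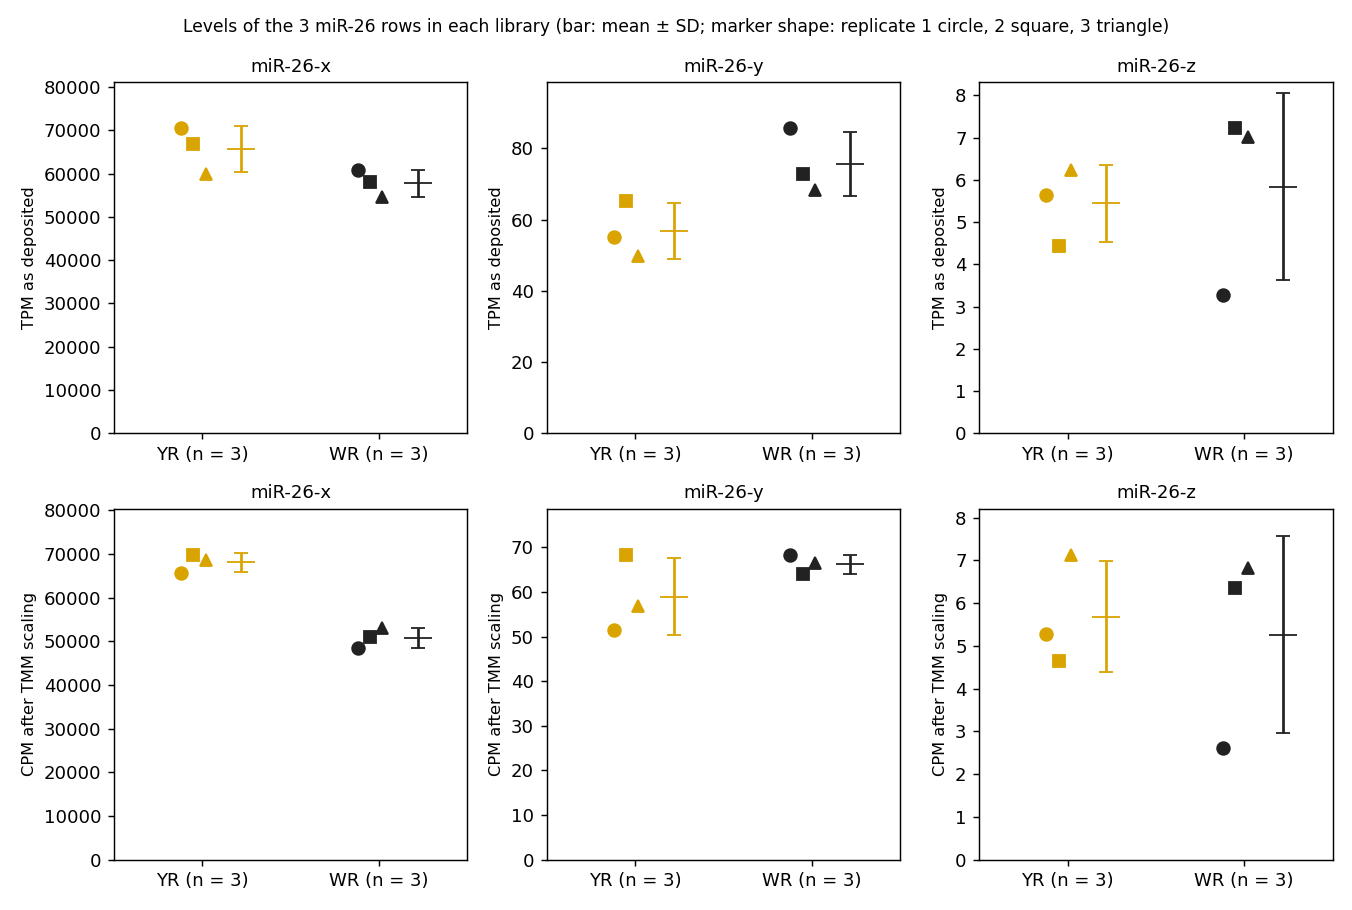
Level (y axis, from 0) of the 3 miR-26 rows in each library, as TPM deposited by the authors (top) and as CPM after TMM scaling (bottom); points are libraries and bars the mean ± SD of 3. miR-26-x overlaps between groups in TPM and separates in CPM, at 65702 to 69896 in YR and 48408 to 53071 in WR, whereas miR-26-y separates in TPM and overlaps in CPM.

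The ratio of the strands needs no scaling, because both are read in the same library. There were 1275, 1022 and 1207 reads of miR-26-x for each read of miR-26-y in YR, against 709, 797 and 799 in WR. Every YR library lay above every WR library. The mean ratio was 1168 ± 131 in YR and 768 ± 51.1 in WR (SD, n = 3 each), or 1.52 times as high in YR and 1.46 times without WR replicate 1. The 5p strand was far more abundant than the 3p strand in both groups. Among the 112 families with both an x and a y row tested, miR-26 had the second highest mean log2 ratio, at 9.86, behind miR-99. The median of the 112 was 0.56.

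On the log2 scale, with a pseudocount of 1 TPM, the strand ratio was 10.16 ± 0.16 in YR and 9.56 ± 0.096 in WR (SD, n = 3 each). The difference was 0.59 (SE 0.16), which ranked 10 from the highest of the 112 families, whose median difference was -0.01. The ratio was higher in every YR library than in every WR library in 11.6% of the families. In the limma fit over all families 0.893% were called, which is 1 of 112, and miR-26 was not (adjusted p = 0.205, and 0.0628 to 0.467 over 11 alternatives). The sources used here do not name the miR-26 genes behind each row, so a change of strand use and a change in which miR-26 genes are read cannot be told apart.

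**Figure D3:**
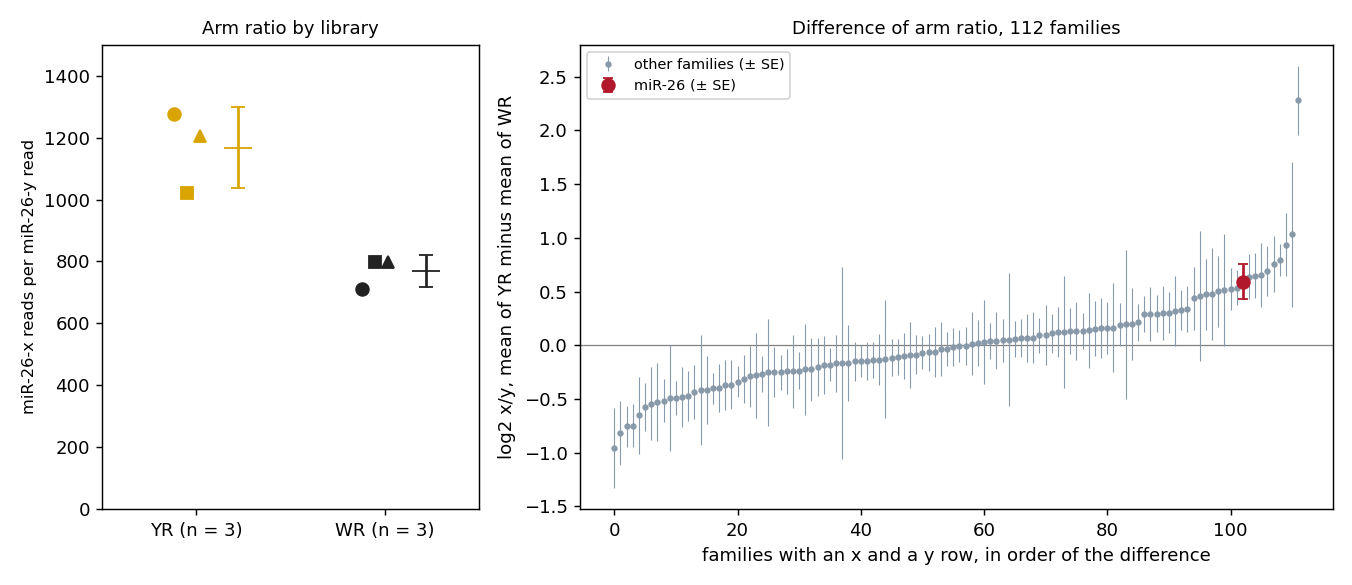
Left, miR-26-x reads for each miR-26-y read (y axis, from 0) in each library, with the mean ± SD of 3: the YR libraries lie at 1022 to 1275 and the WR libraries at 709 to 799. Right, the difference of the mean log2 strand ratio, YR minus WR (y axis, ± SE), of 112 families in order of size (x axis), where miR-26 in red stands at 0.59, rank 10 from the top.

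Set against the other abundant miRNAs of the same library, miR-26-x was higher in YR relative to some and overlapped between groups relative to the rest. Of the 19 other sequences among the 20 most abundant, 7 had a ratio of miR-26-x to them that was higher in every YR library than in every WR library, and 0 had a lower one. The other 12 overlapped, with differences of mean log2 ratios (YR minus WR) from -0.31 for miR-199-y to 0.34 for miR-143-y, against 0.10 for miR-100-x to 0.87 for miR-146-x among the 7. Over all ordered pairs of these 20 sequences that share was 13.2%. Only miR-199-y, with 12, had more such partners, and miR-181-x, let-7-x and miR-100-x had 5 each. The 7 partners were the epidermal miR-184-y, miR-200-y and miR-203-y, the inflammation-linked miR-146-x and miR-21-x, and miR-27-y and miR-100-x. A ratio does not tell which of its 2 rows moved. Counted in the same way, miR-203-y was itself lower in YR over 12 of its 19 partners and miR-21-x over 8. For miR-184-y and miR-146-x the count was 7 each, and for miR-200-y 6. miR-27-y was lower over 3 and higher over 1, and miR-100-x lower over 2 and higher over 5. Another epidermal marker, miR-205-x, was among the 12 partners of miR-26-x that overlapped. The ratio over it was 1.75, 2.07 and 1.88 in YR and 1.48, 1.94 and 1.45 in WR. Without WR replicate 1 the count of partners with a higher ratio was 10, and 1 partner had a lower ratio. Fewer libraries leave less room for overlap, and no share over all pairs is given for that setting.

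The widest of these 7 ratios was over miR-146-x, which is induced in innate immunity. There were 4.91, 4.62 and 4.44 reads of miR-26-x for each of its reads in YR and 4.17, 2.09 and 1.90 in WR. WR replicate 1 lay close to the YR libraries, and the other WR libraries far below. Over miR-203-y, a miRNA of differentiating keratinocytes, the ratio was 8.51, 7.80 and 8.06 in YR and 5.67, 4.12 and 4.52 in WR, with wide room between the groups. Over miR-181-x, the second most abundant miRNA by the mean of all libraries, it was 0.841, 0.750 and 0.672 in YR and 0.826, 0.743 and 0.672 in WR. The 2 sets of values lie side by side, with a difference of mean log2 ratios of 0.01. The log2 fold change of miR-181-x itself was 0.41 (SE 0.15, edgeR adjusted p = 0.199), against 0.42 for miR-26-x. Without WR replicate 1 it was 0.18 for miR-181-x and 0.27 for miR-26-x.

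**Figure D4:**
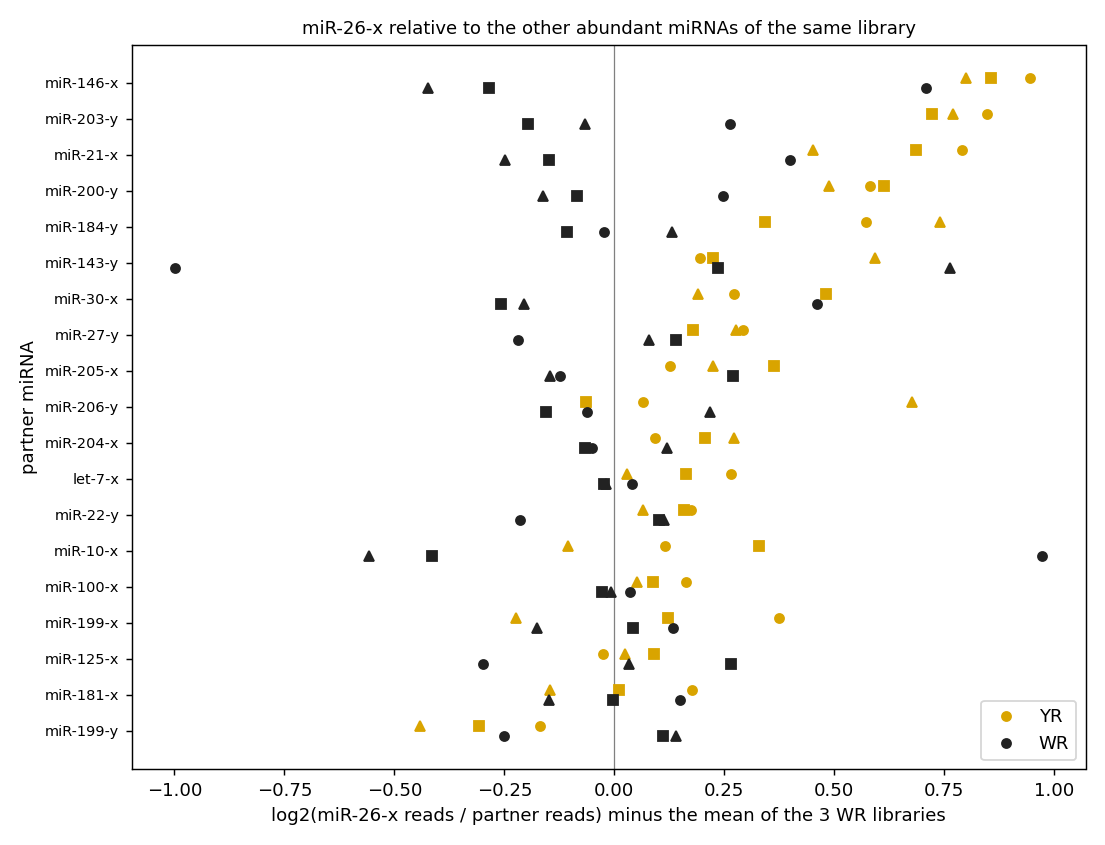
log2 ratio of miR-26-x reads to the reads of each of the 19 other most abundant sequences (rows) in each library, minus the mean of the 3 WR libraries (x axis); YR libraries are yellow, WR libraries black, and shapes mark replicates 1 (circle), 2 (square) and 3 (triangle). The YR points lie right of all WR points for 7 partners, among them miR-203-y and miR-146-x. For miR-181-x the YR and WR points overlap.

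Across the 6 libraries, the pattern of miR-26-x in log2(TPM + 1) was most like that of a predicted miRNA, tgagaactagcgcaccattggt (Pearson r = 0.974 over 6 libraries). This was the highest of 286 other distinct sequences with a mean of at least 10 TPM, whose median r was 0.084. The predicted miRNA stood at 76.2 ± 8.65 TPM in YR and 55.6 ± 7.17 TPM in WR (SD, n = 3 each). Next came miR-22-z (r = 0.961), miR-20-y (r = 0.959), a second predicted miRNA, ttttggtttccgcgtagaacc (r = 0.954), and miR-124-y, a miRNA of neurons (r = 0.952). At the other end stood miR-21-x (r = -0.846), at 19969 ± 764 TPM in YR and 27746 ± 5052 TPM in WR (SD, n = 3 each). Predicted miRNAs ccagtatggcttgtgctgctaac (r = -0.843) and gcaccctattccttatgtagact (r = -0.839) were next to it. These values describe the same 6 libraries, whose group, depth and total are common to all rows, and have no test.

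miR-26-y had other neighbours. The nearest were miR-141-x (r = 0.974), miR-21-y (r = 0.967), miR-141-y (r = 0.954), miR-182-y (r = 0.949) and miR-145-y (r = 0.948), against a median r of 0.31 over the 286. All 5 had a lower mean TPM in YR. They were picked for likeness to miR-26-y, itself lower in YR on this scale, so their direction supports nothing. Here miR-21-y stood at 503.5 ± 99.5 TPM in YR and 988 ± 241 TPM in WR. The row miR-141-y, of the epithelial miR-200 family, stood at 3506 ± 434 TPM in YR and 4767 ± 454 TPM in WR (SD, n = 3 each). The lowest were miR-140-x, a miRNA of cartilage (r = -0.960), miR-722-y (r = -0.931) and miR-100-z (r = -0.915).

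miR-26 belongs to a set of miRNAs known in mammals to repress EZH2, and 8 rows of that set were examined, miR-26-x among them. By edgeR 2 of the 8 rose, miR-26-x and miR-101-y, and 6 did not pass, while over all rows tested 2.16% were called higher. As miR-26-x was chosen for this call, and the list with earlier results known, these counts are a description and support nothing. The median log2 fold change of the 8, miR-26-x included, was 0.51, against -0.03 for all rows, and 8 of 8 values were positive. With library totals alone 6 of 8 were positive, the median was 0.27 against -0.26 for all rows, and 0 passed by edgeR. In the 16 alternatives 0 or 1 passed in 14. By DESeq2 2 passed, miR-101-y and miR-124-y but not miR-26-x, where 32 of 834 rows were called higher. Without WR replicate 1 the count was 3, namely miR-101-y, miR-124-y and miR-214-y, but not miR-26-x, and 34 of 781 rows were called higher.

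miR-101-y, a well-studied repressor of EZH2 in mammals, stood at 2313, 1971 and 2025 TPM in YR and 1811, 1696 and 1433 TPM in WR. Every YR library lay above every WR library, as in 8.63% of all tested rows on this scale. Its log2 fold change was 0.59 (SE 0.099; edgeR adjusted p = 0.0275, and 0.175 with library totals alone), and it lost the call in 12 of 16 alternatives. miR-214-y, transcribed with miR-199 in mesenchyme, was next in abundance below let-7-x and miR-26-x, at 3195, 3303 and 2771 TPM in YR and 3364, 1985 and 1932 TPM in WR. The groups overlapped through WR replicate 1, and its log2 fold change of 0.61 (SE 0.18; edgeR adjusted p = 0.132) passed without that library (0.70; edgeR adjusted p = 0.00933). let-7-x, a miRNA of differentiated cells, had a log2 fold change of 0.27 (SE 0.11, edgeR adjusted p = 0.227), and of 0.096 without WR replicate 1. That of miR-124-y was 1.30 (SE 0.38, edgeR adjusted p = 0.117, and 0.0338 without WR replicate 1). The others, miR-138-x, miR-98-x and miR-217-x, had group means between 3.91 and 11.1 TPM and adjusted p from 0.132 to 0.973.

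Among 16 broadly expressed vertebrate miRNAs, again with miR-26-x, 2 rose by edgeR, miR-26-x and miR-101-y, 0 fell and 14 did not pass. Over all 834 rows 2.16% were called higher and 3.12% lower. As miR-26-x was chosen for this call, its place among the 2 was known beforehand. Of the 16 log2 fold changes 15 were positive, with a median of 0.28 against -0.03 for all rows. With library totals alone 11 were positive, the median was 0.04 against -0.26, and 0 passed by edgeR. Without WR replicate 1, 13 were positive, with a median of 0.15 against -0.001 for all rows, and 1 rose (miR-101-y) and 1 fell (miR-21-x). In that fit 34 of 781 rows were called higher and 78 lower. With all libraries miR-21-x was the 1 negative value, at -0.25 (SE 0.22; edgeR adjusted p = 0.503). The nearest to the threshold of those that did not pass was miR-15-x, at 0.46 (SE 0.11; edgeR adjusted p = 0.0664).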

How the data were processed

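Small RNA from dorsal skin was sequenced on an Illumina HiSeq Xten, per the labels' protocols. The authors' deposited table gives whole-number counts of each mature miRNA in each library, and a TPM score of which a library's values sum to 1039890 to 1052570, with a count of 0 written as 0.01 (set to 0 here). It also holds the authors' log2 fold change, p-value and adjusted p-value, for which the sources used here name no test, and they name no aligner, miRNA database or genome build. Letters x and y were read as 5p and 3p strands.

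The members and lists were chosen with earlier results of these data known. Rows averaging at least 1 TPM were tested on the counts with edgeR 4.0.16 (R 4.3.3) by its quasi-likelihood test, after TMM scaling and without a replicate term. P-values were adjusted by Benjamini-Hochberg over all 834 rows, where copies of a sequence count as separate rows, with a threshold of 0.05. SEs were derived from the log2 fold change and its F statistic. Rows left out held 0.0369% of the counts. Strand ratios were fitted with limma 3.58.1 on log2((x TPM + 1)/(y TPM + 1)). The duplex was predicted with RNAduplex (ViennaRNA 2.7.2). DESeq2 1.42.0, other scalings and filters, a replicate term and each library left out were alternatives. Named were the miR-26 rows, rows of the same seed, the most abundant rows, the rows most and least like miR-26-x and miR-26-y, and 2 lists. miR-460-y, the predicted row beside it and miR-127-y were named after their values were seen. Intervals cover counting error only. Replicates of a group differed by more than sampling noise (chi-square per degree of freedom 65.2 to 527), so each library counts once. The edgeR and strand-ratio steps were tested on simulated data whose changes were larger than those of miR-26. That test does not speak of changes as small as these.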

Additional observations from a re-analysis of the deposited data

How the results depend on the processing

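The log2 fold change of miR-26-x kept its sign in all 16 alternatives and lost the call in all 16. It was 0.19 with library totals alone, 0.35 with median-of-ratios scaling, 0.52 with upper-quartile scaling, 0.38 with totals that leave out the 5 most abundant, 0.35 with DESeq2 and 0.18 with limma on log2(TPM + 1). It was 0.21 with a filter at 10 TPM, 0.37 with no filter and 0.28 with 1 row for each distinct sequence, and 0.27 to 0.45 with single libraries left out. The cause was not tested. miR-26-y kept its sign and stayed without a call in 16 of 16 (-0.41 to -0.058), and the strand ratio in 11 of 11 (difference 0.53 to 0.68). miR-26-z turned negative with library totals alone (-0.10), with limma on log2(TPM + 1) (-0.036) and with 1 row for each distinct sequence (-0.025), and ranged from -0.33 to 0.33 with single libraries left out. The share difference, 0.769 percentage points for miR-26-x and 0.767 for all 3 rows, was 1.30 for both with the most abundant miRNA left out of the total, where the shares themselves are larger (YR over WR 1.17 for miR-26-x, against 1.14). The partners over which miR-26-x was higher in every YR library were 20 of 49 among the 50 most abundant sequences. There miR-199-y had 31 such partners, miR-101-y 26, miR-15-x 25 and miR-455-x 20. No share over all pairs is given for that setting.

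The number of miRNAs past the threshold, 44 in the fit above, was 24 with upper-quartile scaling, 76 with DESeq2, 16 with a filter at 10 TPM and 21 with 1 row for each distinct sequence, and 1 to 112 with single libraries left out (112 without WR replicate 1). Fewer rows were tested under the stricter filter and with distinct sequences, and fewer libraries when 1 was left out.

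The labels number the replicates of both groups 1 to 3 and do not say that a number pairs them. Deviations from the group means of same-numbered libraries correlated at 0.26, -0.10 and 0.27, against -0.38 to 0.14 for differently numbered libraries. These values do not settle whether the numbers pair the samples, and the fit above was run without a replicate term. With a replicate block 2 miRNAs passed, and the log2 fold change of miR-26-x was 0.42 (edgeR adjusted p = 0.0934). With 3 libraries in a group, and 27 to 63 reads of miR-26-z, the precision is limited.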
